A study of Mus musculus with 7 samples.

Results

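The 40 genes described here encode receptors of the interleukin-6 (IL-6) family and of related cytokines, the signal transducer STAT3 with its feedback inhibitors and partner transcription factors, acute phase proteins and other secreted STAT3 targets, and complement proteins. They were chosen by symbol from a list and matched to the gene column of a count table of 54446 genes, where all 40 were found. Interleukin ligands were left out of the list, and Lif is its only ligand. The libraries are polyadenylated RNA from pancreatic spheroids, which are 3-dimensional cultures of pancreatic epithelial cells, grown from wild-type animals of the C57BL/6J strain. These were either untreated (3 libraries, untreated 1 to 3) or had earlier received caerulein (4 libraries, post-caerulein 1 to 4), a cholecystokinin analogue that causes acute pancreatitis. The sources used here give neither the age of the mice nor the caerulein schedule nor the time from caerulein to culture. All spheroids grew in a medium that held hydrocortisone, EGF, insulin, cholera toxin and a serum supplement, so every group was exposed to a glucocorticoid. The labels do not say whether libraries came from separate animals or cultures, and p-values therefore cover no more than the variation among these libraries, possibly technical in origin.

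Cytokines of the IL-6 family signal through the shared receptor chain gp130 (Il6st), which pairs with a further chain that depends on the ligand, such as Il6ra, Osmr or Lifr. JAK kinases bound to gp130 phosphorylate STAT3, which enters the nucleus and switches on target genes, among them Socs3, whose product blocks further signalling at gp130. In the liver the same route, together with C/EBP transcription factors, drives the acute phase response, the release of plasma proteins such as serum amyloid, haptoglobin and complement C3 during inflammation. Epithelia of the pancreas and gut also make a part of these proteins, including lipocalin 2 and C3.

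Total counts ranged from 34783738 to 46744497 per library, and a count of 0 allowed a level of up to 0.0630 to 0.0841 CPM (the count scaled to a common library size), the value of 3 reads. Epcam and Krt19, from a list of 6 epithelial markers, were at 494 to 759.9 and at 2302 to 4464 CPM over all libraries. On the same list Krt7 was lower after caerulein without overlap (2286 to 2662 CPM in untreated, 1699 to 2112 in post-caerulein libraries). Cdh1 was higher without overlap (1664 to 2017 and 2047 to 2812 CPM). The groups overlapped for Epcam, Krt8, Krt18 and Krt19, and 0 of the 6 were called in either fit described below. The summed level of 11 leukocyte markers was 21.7 to 99.0 CPM in untreated and 13.5 to 36.9 CPM in post-caerulein libraries, and nearly all of it was Cd68, a lysosomal protein of macrophages, with 97.9 CPM in untreated 3. Csf1r, a macrophage receptor, lay between 0.421 and 0.674 CPM in untreated and between 0.925 and 1.197 CPM in post-caerulein libraries, without overlap (adjusted p = 0.155 with the block term described next, edgeR quasi-likelihood). Ptprc, which marks all leukocytes, did not exceed 0.105 CPM, and the part of leukocytes in the results was not tested. Some libraries were much closer than others: the biological coefficient of variation was 8.46% for the pair untreated 1 and 2, 5.73% for the pair post-caerulein 2 and 3, and at least 21.98% for each other pair. A model with the group as its only term was fitted to all genes, and so was a model with a further term (the block) that sets untreated 3 and post-caerulein 4 (the smaller block) apart from the other 5 libraries (the larger block). No label says what the block stands for. Both models were also refitted with a likelihood ratio test to the 12983 genes of the authors' deposited table. With the block, this refit gave the log2 fold changes of that table to within 3.2e-08 and shared all of its 1023 calls. Without the block the refit called 320 genes, of which 319 were shared. The calls of the next paragraph come from a different test and from more genes.

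Of the 40 members, 35 had enough reads to be tested. With the group alone, edgeR's quasi-likelihood test called 0 of the 35 at an adjusted p under 0.05, as it called 0% of all 16438 genes tested, and 18 of the 35 had an unadjusted p under 0.05, against 9.5% of all genes. With the block, 5 members rose after caerulein (Pzp, Apcs, Ambp, Cp and C4b) and Cebpd fell, 6 of 35 in all, where 1.53% of all genes were called, 0.651% higher and 0.876% lower. The groups did not overlap for 9 tested members, 7 higher and 2 lower, against 9.31% of all genes tested. The median log2 change of the 35 members was 0.56 with the group alone and 0.83 with the block, while over all genes tested the medians were -0.02 and 0.00. The members were chosen with results of these data known, so these shares describe the list and are no test of it. With the block, no member was called without untreated 1 or without untreated 2, where 0% of all genes were called. None was called without post-caerulein 2 or without post-caerulein 3, where 0.18% and 0.0186% of all genes were called. Without post-caerulein 1, 5 members were called, where 0.807% of all genes were. Without untreated 3 or without post-caerulein 4, 20 members were called, where 13.5% and 13% of all genes were. When the 2 libraries of each close pair were added together, no member and 0% of all genes were called.

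**Figure D1:**
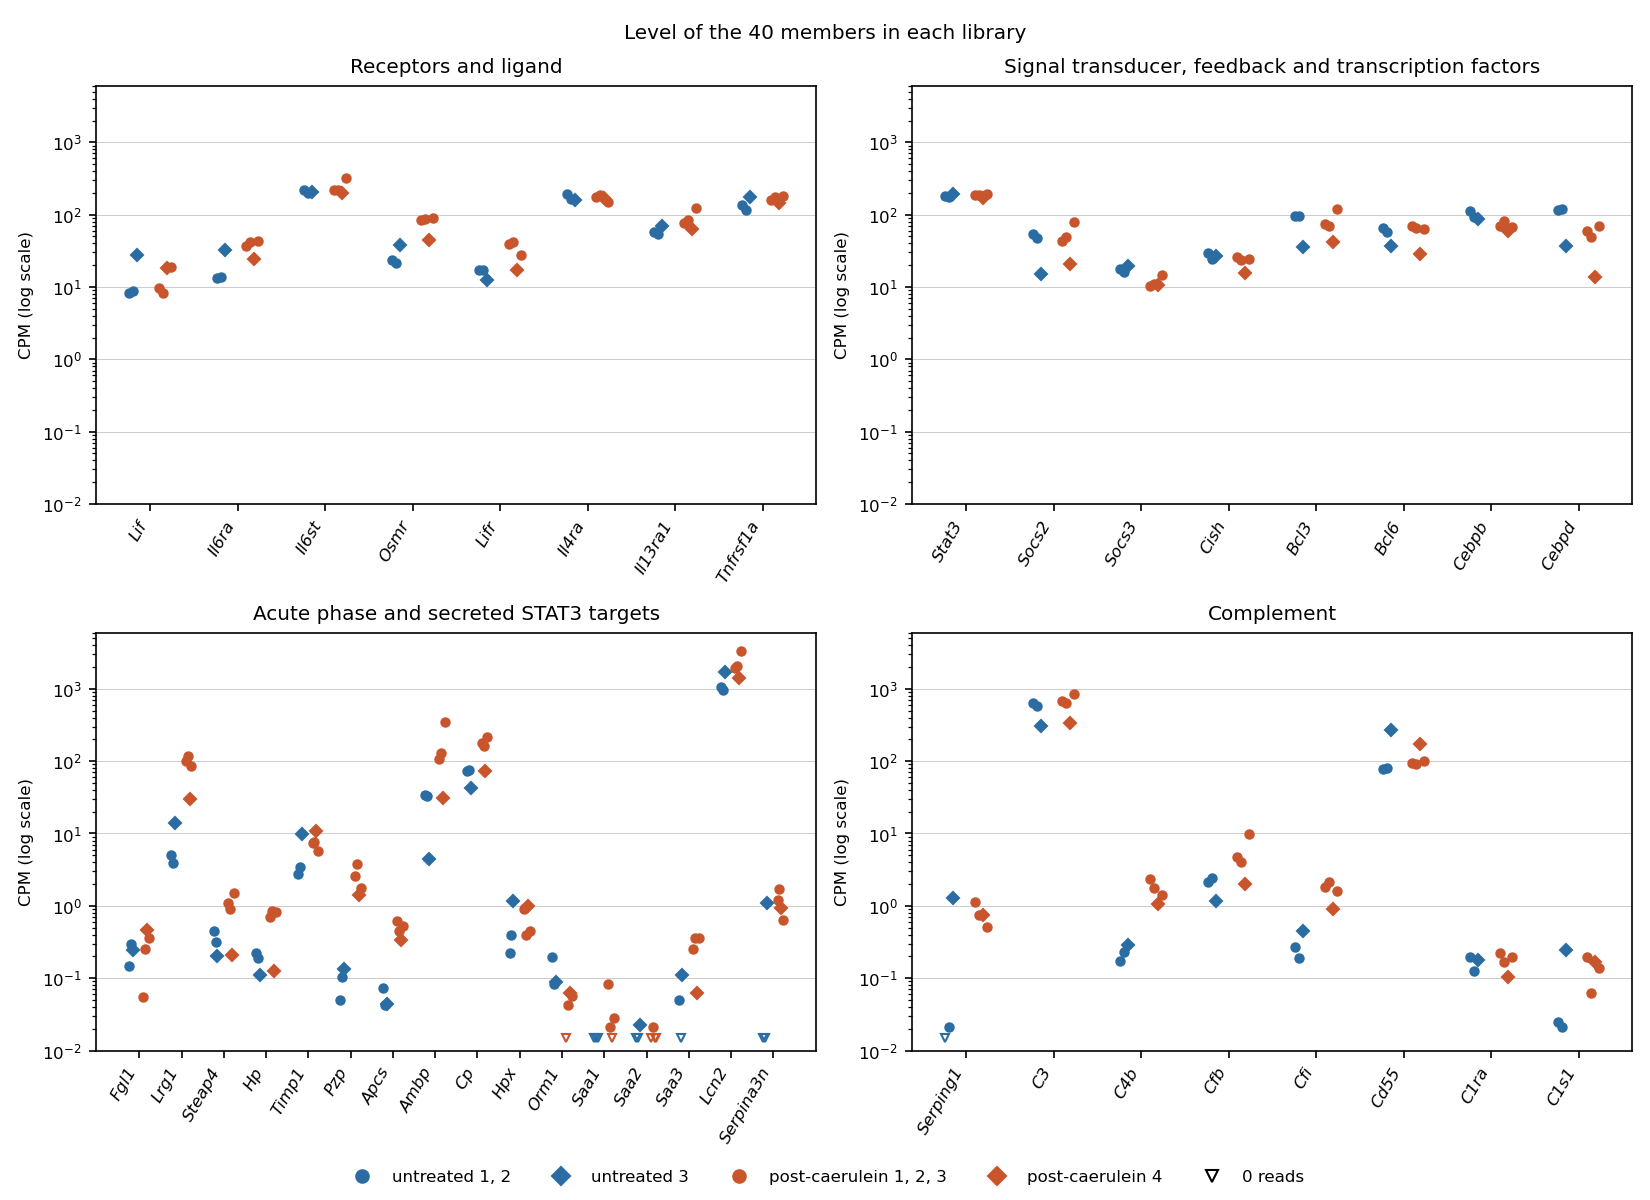
Level of the 40 members in each library, in CPM on a log scale, in 4 panels by role. Each point is 1 library, diamonds are untreated 3 and post-caerulein 4, and open triangles at the lower edge are libraries with 0 reads; Pzp, Apcs and C4b lie below 0.3 CPM in all 3 untreated libraries and higher in all 4 post-caerulein libraries.

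Among the receptors, Osmr and Lifr had no overlap between the groups and higher values after caerulein, but none of the 8 genes of this role passed the test in either fit. Osmr, the oncostatin M receptor chain (chromosome 15, 6813577 to 6874969, GRCm38), was at 23.3, 21.4 and 38.6 CPM in untreated libraries 1, 2 and 3, and at 91.1, 85.4, 85.9 and 44.9 CPM in post-caerulein 1 to 4. Every post-caerulein library lay above every untreated one, and post-caerulein 4 lay far below the other 3 of its group. The log2 change was 1.47 ± 0.31 (SE) with the group alone (adjusted p = 0.215, edgeR quasi-likelihood) and 1.46 ± 0.33 with the block (adjusted p = 0.0806). Lifr, the chain that binds leukaemia inhibitory factor and is also on chromosome 15 (7129559 to 7197489), was at 17.3, 17.4 and 12.4 CPM without caerulein and at 27.7, 39.6, 41.5 and 17.4 CPM after it. Its groups were parted by a margin that vanishes at this rounding, since untreated 2 and post-caerulein 4 had nearly the same value. Its log2 change was 1.01 ± 0.31 with the group alone (adjusted p = 0.329, edgeR quasi-likelihood) and 0.90 ± 0.18 with the block (adjusted p = 0.0649).

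Il6ra, the chain that binds IL-6 itself (chromosome 3, 89864059 to 89913196), was at 13.2, 13.95 and 32.9 CPM without caerulein and at 43.6, 36.7, 41.8 and 24.0 CPM after it. Untreated 3 exceeded post-caerulein 4, so the groups overlapped. The log2 change was 0.87 ± 0.37 with the group alone (adjusted p = 0.511, edgeR quasi-likelihood) and 0.99 ± 0.39 with the block (adjusted p = 0.248). Within the larger block the log2 difference was 1.58, and between post-caerulein 4 and untreated 3 it was -0.46, the opposite direction. Il6st, the shared gp130 chain, was at 219, 197 and 204 CPM without caerulein and at 325, 220.1, 219 and 200.3 CPM after it. Apart from post-caerulein 1 its values lay within a narrow range in both groups (adjusted p of 0.810 and 0.612 in the fits without and with the block, edgeR quasi-likelihood). Per exon length, gp130 stood above the chains it pairs with, at a mean level of 20.6 RPKM (reads scaled for exon length and depth) over the 7 libraries, against 10.2 for Osmr, 3.41 for Il6ra and 2.38 for Lifr.

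Lif, the ligand that binds Lifr, was at 8.34, 8.66 and 27.6 CPM without caerulein and at 19.1, 9.65, 8.38 and 18.4 CPM after it. Its highest value was that of untreated 3, and the groups overlapped throughout (adjusted p of 0.980 and 0.831 without and with the block, edgeR quasi-likelihood). Il4ra and Il13ra1 form the receptor shared by IL-4 and IL-13. Il4ra lay between 149 and 193 CPM in all 7 libraries, with nearly equal group means of 172 ± 18.2 (SD, n = 3) and 170.2 ± 15.7 CPM (SD, n = 4). Il13ra1 was at 60.4 ± 7.47 and 86.9 ± 25.4 CPM, with its highest level of 123 CPM in post-caerulein 1. Tnfrsf1a, the main receptor of tumour necrosis factor, had the highest level per length of the 8 genes of this role (71.8 RPKM), and its group means were 142 ± 29.1 and 165 ± 14.6 CPM. In the larger block alone, where 13.8% of 16276 genes were called, edgeR's test called Il6ra, Osmr, Lifr, Il13ra1 and Tnfrsf1a higher after caerulein.

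Stat3 itself had nearly the same level in every library. It was at 182, 177 and 194 CPM without caerulein and at 195, 189, 188 and 172 CPM after it (adjusted p of 0.987 and 0.966 without and with the block, edgeR quasi-likelihood). The highest and the lowest post-caerulein values enclosed all untreated ones. These are transcript levels, and STAT3 phosphorylation was not measured here.

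Of the feedback and transcription factor genes, Cebpd fell in the fit with the block, and Socs3 and Cebpb had lower values in every post-caerulein library without passing the test. Socs3 (chromosome 11, 117966079 to 117969186) was at 17.9, 16.3 and 19.5 CPM without caerulein and at 14.7, 10.3, 10.8 and 10.6 CPM after it. The groups did not overlap, and post-caerulein 1 lay nearest to the untreated range. The log2 change was -0.63 ± 0.17 with the group alone (adjusted p = 0.281, edgeR quasi-likelihood) and -0.63 ± 0.16 with the block (adjusted p = 0.106). Cebpb, the C/EBP factor known as nuclear factor of IL-6 (chromosome 2, 167688915 to 167690418), was at 112, 91.6 and 86.3 CPM without caerulein and at 67.9, 69.6, 81.9 and 59.2 CPM after it. Its groups also did not overlap, with a log2 change of -0.47 ± 0.14 (adjusted p = 0.322, edgeR quasi-likelihood) and, with the block, of -0.50 ± 0.11 (adjusted p = 0.0714). Socs3 and Cebpb were the 2 tested members with lower, non-overlapping groups, where 4.64% of all genes had such groups.

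Cebpd, a C/EBP factor induced by cytokines and by glucocorticoids (chromosome 16, 15887286 to 15891031), was at 117 and 119.6 CPM in untreated 1 and 2, with a much lower 37.3 CPM in untreated 3. In post-caerulein 1 to 4 it was at 68.9, 59.5, 48.9 and 13.9 CPM. The groups overlapped because untreated 3 lay below 3 of the post-caerulein libraries, whereas within each block the post-caerulein libraries were lower. Within the larger block the difference on the log2 scale was -0.999, and post-caerulein 4 differed from untreated 3 by -1.42. With the block Cebpd fell by 1.12 on the log2 scale (SE 0.14, adjusted p = 0.0231, edgeR quasi-likelihood), and with the group alone the change was -0.93 ± 0.56 (adjusted p = 0.700). The call was lost without untreated 1 (0.182), untreated 2 (0.198), post-caerulein 2 (0.0715) or post-caerulein 3 (0.0830).

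Among the other genes of this role, Bcl3, a STAT3 target that encodes a nuclear protein of the inhibitor kappa B family, was at 95.3, 96.8 and 35.8 CPM without caerulein and at 119, 74.9, 69.7 and 42.0 CPM after it. Bcl6, a transcriptional repressor, was at 66.3, 57.8 and 36.8 CPM and at 63.7, 70.1, 65.5 and 28.7 CPM. Socs2, a feedback inhibitor best known from growth hormone signalling, was at 54.1, 47.5 and 15.1 CPM and at 79.5, 42.6, 48.4 and 20.8 CPM. In all 3 genes untreated 3 and post-caerulein 4 were the lowest libraries. Cish, a STAT5 target of the same family, was at 26.9 ± 2.72 and 22.4 ± 4.503 CPM, with its lowest value of 15.8 CPM in post-caerulein 4. None of these 4 passed in either fit.

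**Figure D2:**
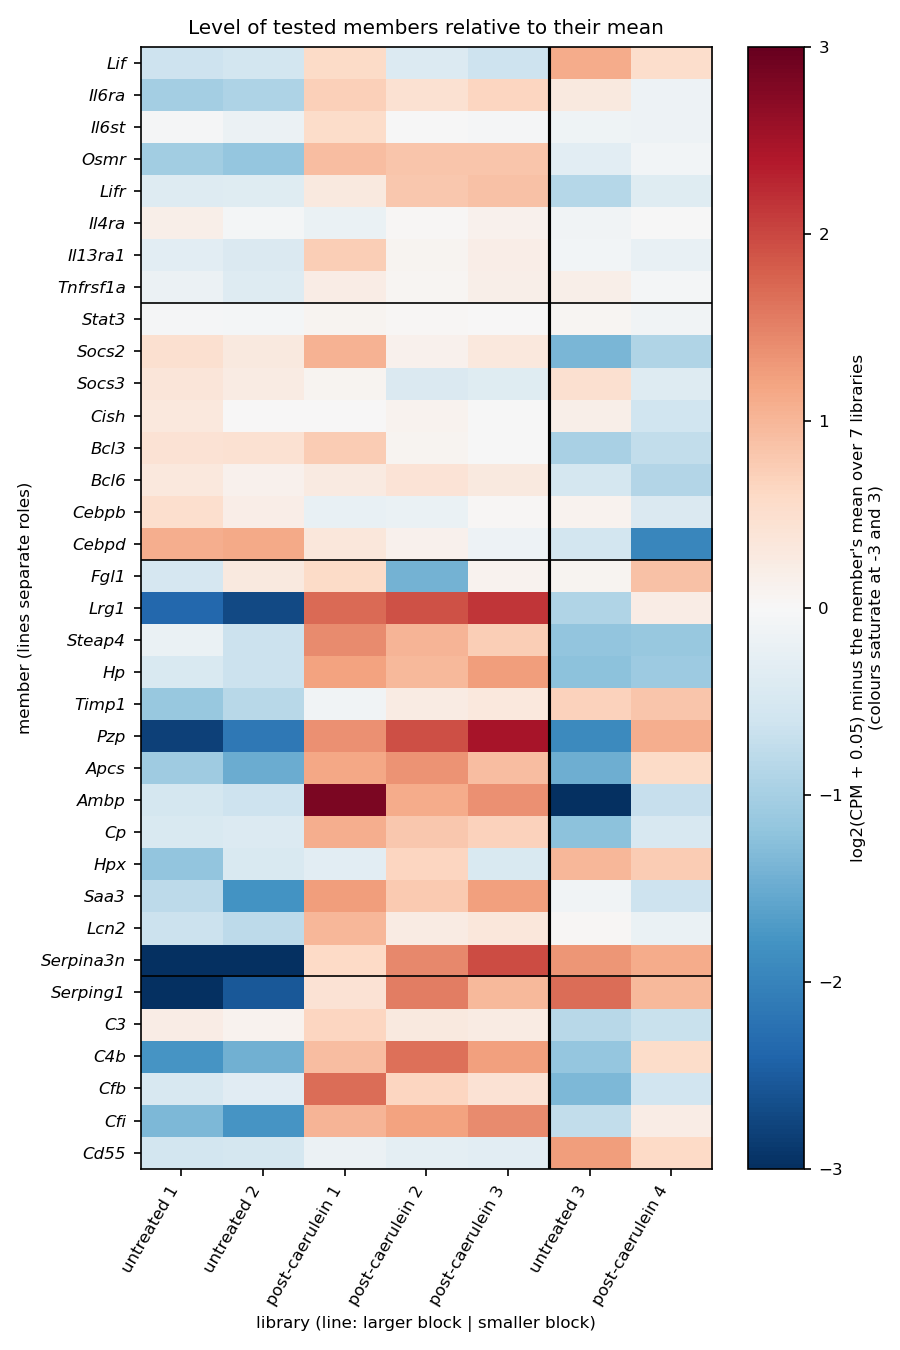
Level of the 35 tested members in each library as log2(CPM + 0.05) minus the member's mean over the 7 libraries; columns are libraries, with the smaller block to the right of the vertical line, and horizontal lines separate the roles. Pzp, Apcs, Ambp and Cp are lower in the untreated than in the post-caerulein libraries on either side of the line, and Stat3 is nearly even across all 7.

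The acute phase and secreted genes were the role in which most members had higher values after caerulein: all 13 tested members had a positive log2 change in both fits, and 4 of them rose with the block. Of all 16438 genes tested, 7740 had a positive change with the group alone and 8114 with the block. Of the 13 members, 9 were higher after caerulein in both blocks, while Lcn2, Saa3, Serpina3n and Hpx were lower in the smaller block. Orm1, too low to test, had 16 reads in untreated and 7 in post-caerulein libraries. Pzp encodes pregnancy zone protein, a broad protease inhibitor of the alpha-2-macroglobulin family that is mainly a liver product (chromosome 6, 128483567 to 128526720). It was at 0.0495, 0.105 and 0.133 CPM without caerulein and at 1.74, 2.58, 3.77 and 1.41 CPM after it. Every post-caerulein library lay far above every untreated one, in both blocks. It rose by 4.48 ± 0.52 (log2, SE) with the block (adjusted p = 0.0226, edgeR quasi-likelihood), and the change with the group alone was 4.57 ± 0.54 (adjusted p = 0.137). The untreated level rests on 13 reads, against 401 after caerulein, and their depth-scaled ratio is 24.6 (14.2 to 46.5 at 95%, counting error only).

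Apcs encodes serum amyloid P, a pentraxin that is a main acute phase protein of the mouse (chromosome 1, 172893961 to 172895041). It was at 0.0742, 0.0421 and 0.0445 CPM without caerulein and at 0.533, 0.610, 0.442 and 0.336 CPM after it, again without overlap. The reads were 7 against 78, a ratio of 8.87 (4.11 to 22.8), and each untreated library held 2 or 3 of them, at or under the limit that a count of 0 allows. Apcs rose by 3.05 ± 0.40 with the block (adjusted p = 0.0234, edgeR quasi-likelihood) and its change was 3.10 ± 0.43 with the group alone (adjusted p = 0.137). With the block, Apcs was dropped by the stricter filter and was not called by DESeq2. Its level in post-caerulein libraries remained under 1 CPM.

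Ambp and Cp were called at much higher levels. Ambp encodes the precursor of alpha-1-microglobulin and of bikunin, a protease inhibitor (chromosome 4, 63143275 to 63154173). It was at 34.4, 32.5 and 4.42 CPM without caerulein and at 352, 108, 129 and 31.1 CPM after it. The groups overlapped, since post-caerulein 4 lay just below untreated 1 and 2, but post-caerulein 4 exceeded untreated 3. Ambp rose by 2.63 ± 0.43 with the block (adjusted p = 0.0422, edgeR quasi-likelihood), while with the group alone the change was 2.71 ± 0.95 (adjusted p = 0.393). It lost the call without a filter (adjusted p = 0.165, edgeR quasi-likelihood), under the stricter filter (0.0519) and with the replicate number as a replicate block (0.0549). Cp encodes ceruloplasmin, the copper-carrying ferroxidase of plasma (chromosome 3, 19957054 to 20009145). It was at 72.8, 75.5 and 42.6 CPM without caerulein and at 215, 176, 162 and 72.1 CPM after it. Post-caerulein 4 was level with untreated 1 and 2 and above untreated 3. Cp rose by 1.15 ± 0.15 with the block (adjusted p = 0.0233, edgeR quasi-likelihood) and its change was 1.29 ± 0.37 with the group alone (adjusted p = 0.307).

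All 4 rises were lost when a library of a close pair was left out. The adjusted p of Pzp, Apcs, Ambp and Cp was then 0.182, 0.205, 0.260 and 0.223 without untreated 1, and 0.198, 0.203, 0.267 and 0.217 without untreated 2. It was 0.0625, 0.0769, 0.0681 and 0.0731 without post-caerulein 2, and 0.0814, 0.0906, 0.0978 and 0.0844 without post-caerulein 3. The log2 changes kept their sign in each of these fits.

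Markers of hepatocytes, the main source of these proteins in the body, had higher sums after caerulein. The summed level of 9 hepatocyte markers was 11.1 to 15.4 CPM without caerulein and 40.7 to 145 CPM in post-caerulein libraries. Most of it came from Ttr and Apob. None of the 5 tested markers passed in either fit, but the authors' deposited table gives Ttr (false discovery rate 6.76e-06), Apoa1 (0.000871) and Apob (0.0151) as higher. Apoa1 was at 0.489 to 1.03 CPM without caerulein and at 5.69, 9.73, 9.73 and 0.546 CPM after it. Apoa2 did not exceed 0.421 CPM, and its groups overlapped. Cps1, Tat, Cyp3a11 and Fabp1, which are abundant in hepatocytes, had between 1 and 5 reads each over all 7 libraries, and Alb did not exceed 0.420 CPM. Acinar markers summed to 0.618 to 0.823 CPM without caerulein and 1.75 to 11.4 CPM in post-caerulein libraries, with Ctrb1 the 1 of 2 tested markers that rose with the block. Islet markers summed to 0.0247 to 0.400 and 0.462 to 4.51 CPM. Whether hepatocytes, acinar cells or islet cells play a part in these differences was not tested. In such bulk samples more cells of a type and more RNA per cell cannot be told apart.

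Promoter sequences of RefSeq (GRCm38.p6) were matched for 31 of the 40 members and searched over the 250 bases before each start, on both strands, for 2 motifs. The STAT motif TTCNNNGAA was found in windows of 5 members, Apcs, Bcl6, Socs3, Steap4 and Tnfrsf1a. It was in 6 of the 35 windows of the members, some of which have several starts, and in 7.02% of all 32851 windows. The C/EBP motif TTGCNNAA was found in 9 members, C1s1, C3, Cp, Hpx, Lcn2, Saa1, Saa2, Saa3 and Steap4. It was in 9 of the 35 windows of the members and in 9.56% of all windows. The 2 motifs are not the same letters and their matches in Steap4 do not overlap. Shown whole are the windows of Pzp and Apcs, which had the largest rises with the block, of Socs3, whose values were lower, and of C3, the most abundant complement gene. They are written 5′ to 3′ on the strand of the gene, and capitals mark a motif match.
Pzp, chr6:128526721-128526970, minus strand: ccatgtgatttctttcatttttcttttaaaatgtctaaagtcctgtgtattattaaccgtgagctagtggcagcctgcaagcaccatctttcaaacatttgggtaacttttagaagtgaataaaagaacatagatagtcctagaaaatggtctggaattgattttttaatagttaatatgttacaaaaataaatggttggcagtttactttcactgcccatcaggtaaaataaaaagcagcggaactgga
Apcs, chr1:172895055-172895304, minus strand: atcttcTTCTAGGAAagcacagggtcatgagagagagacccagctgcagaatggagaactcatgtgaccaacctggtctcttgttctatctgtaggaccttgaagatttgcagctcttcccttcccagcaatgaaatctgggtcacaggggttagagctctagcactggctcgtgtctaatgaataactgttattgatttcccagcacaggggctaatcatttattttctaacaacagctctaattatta
Socs3, chr11:117969367-117969616, minus strand: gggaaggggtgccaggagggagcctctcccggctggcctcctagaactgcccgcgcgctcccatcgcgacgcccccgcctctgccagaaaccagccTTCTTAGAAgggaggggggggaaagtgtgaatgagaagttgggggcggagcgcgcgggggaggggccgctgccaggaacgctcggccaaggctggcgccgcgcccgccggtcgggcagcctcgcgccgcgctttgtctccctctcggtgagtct
C3, chr17:57228137-57228386, minus strand: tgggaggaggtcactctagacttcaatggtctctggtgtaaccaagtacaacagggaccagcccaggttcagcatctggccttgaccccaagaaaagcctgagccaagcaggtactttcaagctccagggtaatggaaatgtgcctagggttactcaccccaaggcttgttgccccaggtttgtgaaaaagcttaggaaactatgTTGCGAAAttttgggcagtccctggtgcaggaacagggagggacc
The STAT match of Apcs begins 244 bases before the start and that of Socs3 154 bases before it, and the C/EBP match of C3 begins 45 bases before it. The window of Pzp held neither motif. For genes whose window overlaps their own transcripts, only the motif with 10 bases on each side is given, shown because Cp rose with the block and Steap4 holds both motifs.
Cp, C/EBP motif, chr3:19957169-19957196, plus strand: ttagttactcTTTTGCAAcattaaattg
Steap4, STAT motif, chr5:7960346-7960374, plus strand: ggttgaactcTTCCCGGAAactttgcttc
Steap4, C/EBP motif, chr5:7960375-7960402, plus strand: acagctcctcTTGCGAAAtcaagcgggc
A match describes the letters only and is no evidence that a factor binds there. Of the 5 members with the STAT motif, only Apcs passed with the block (log2 change 3.05). The changes of the others were 1.26 for Steap4, 0.24 for Tnfrsf1a, -0.03 for Bcl6 and -0.63 for Socs3. Whether the motif plays a part in these changes was not tested.

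Lrg1, a secreted glycoprotein that is a STAT3 target, had the largest log2 change of the members that did not pass. It was at 5.05, 3.94 and 13.98 CPM without caerulein and at 85.8, 99.5, 116 and 30.4 CPM after it, without overlap. The log2 change was 3.44 ± 0.62 with the group alone (adjusted p = 0.182, edgeR quasi-likelihood) and 3.52 ± 0.71 with the block (adjusted p = 0.0641). Within the larger block it was 4.47 and in the smaller block 1.12, since both libraries of the smaller block lay between the others.

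Lcn2, lipocalin 2, which binds bacterial siderophores, was the most abundant member per length, at 1945 RPKM, and had 1059.9, 963 and 1682 CPM without caerulein and 3298, 1947, 2085 and 1424 CPM in post-caerulein libraries. Post-caerulein 4 lay below untreated 3, and Lcn2 did not pass in either fit (adjusted p of 0.456 and 0.270, edgeR quasi-likelihood). Timp1, an inhibitor of matrix metalloproteinases, was at 5.35 ± 3.93 and 7.91 ± 2.22 CPM and was highest in the smaller block, with 9.87 CPM for untreated 3 and 10.99 CPM for post-caerulein 4. Steap4, a metalloreductase induced by cytokines, was at 0.445, 0.316 and 0.200 CPM without caerulein and at 1.49, 1.11, 0.905 and 0.210 CPM after it. Hp, haptoglobin, which binds free haemoglobin, was at 0.223, 0.190 and 0.111 CPM and at 0.813, 0.693, 0.842 and 0.126 CPM. In Steap4 and Hp the post-caerulein libraries 1 to 3 stood above all untreated ones, whereas post-caerulein 4 was level with untreated 3, and neither gene passed (adjusted p of 0.166 and 0.104 with the block, edgeR quasi-likelihood).

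Saa1, Saa2, Orm1 and Saa3 had few reads. Saa1 and Saa2, the serum amyloid A genes of the liver, had 0 and 1 read in the untreated and 5 and 1 in the post-caerulein libraries, and near-identical sequences make the split of reads between the pair uncertain. Orm1, an acid glycoprotein, had 8, 4 and 4 reads in untreated and 2, 0, 2 and 3 reads in post-caerulein libraries; its groups did not overlap, but it was too low to test. Saa3, the serum amyloid A gene expressed outside the liver, had 2, 0 and 5 reads in untreated and 13, 9, 17 and 3 reads in post-caerulein libraries (adjusted p = 0.307 with the block, edgeR quasi-likelihood). Fgl1, a fibrinogen-like protein, and Hpx, which binds haem, stayed between 0.0555 and 1.18 CPM with overlapping groups.

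Serpina3n, a serine protease inhibitor of the acute phase, had 0 reads in untreated 1 and 2 but 50 in untreated 3, against 23, 43, 82 and 45 in post-caerulein 1 to 4. Serping1, the inhibitor of complement C1, had a similar distribution, with 0, 1 and 57 reads in untreated and 18, 41, 36 and 36 in post-caerulein libraries. Both therefore had far higher values after caerulein in the larger block and lower values in post-caerulein 4 than in untreated 3. Fibroblast markers were also low in untreated 1 and 2: the summed level of 8 was 0.272, 0.126 and 21.1 CPM without caerulein and 3.00, 7.29, 4.13 and 6.996 CPM in post-caerulein libraries. The sum of untreated 3, mostly collagen genes, lay far above every post-caerulein library. Serpina3n was at 1.11 CPM in untreated 3, below post-caerulein 2 and 3 (1.19 and 1.73 CPM). Serping1 was at 1.27 CPM in untreated 3, above every post-caerulein library (0.504 to 1.14 CPM). Pdgfrb, on the same marker list, was at 0.311 CPM in untreated 3 and at 0.333 to 0.441 CPM in post-caerulein libraries. The part of fibroblasts in the values of Serpina3n and Serping1 was not tested.

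Of the 8 complement genes 6 were tested, and C4b rose with the block. C4b encodes complement C4, which is cleaved in the classical and lectin pathways (chromosome 17, 34728380 to 34743882). It was at 0.173, 0.232 and 0.289 CPM without caerulein and at 1.40, 2.33, 1.75 and 1.07 CPM after it, without overlap. It rose by 2.74 ± 0.39 (log2, SE) with the block (adjusted p = 0.0292, edgeR quasi-likelihood), and the change with the group alone was 2.80 ± 0.39 (adjusted p = 0.137). The call was lost without post-caerulein 1 (0.0531), untreated 1 (0.229), untreated 2 (0.227), post-caerulein 2 (0.0752) or post-caerulein 3 (0.102). C4a, a neighbouring near-identical copy that can share reads with C4b, was at 0.717, 0.759 and 1.82 CPM without caerulein and at 0.448, 0.887, 0.653 and 1.22 CPM after it, with overlapping groups.

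Cfi, the protease that inactivates C3b and C4b, was at 0.272, 0.190 and 0.445 CPM without caerulein and at 1.63, 1.83, 2.13 and 0.903 CPM after it. The groups did not overlap, and the log2 change was 2.41 ± 0.44 with the group alone (adjusted p = 0.182, edgeR quasi-likelihood) and 2.36 ± 0.45 with the block (adjusted p = 0.0552). Cfb, factor B of the alternative pathway, was at 2.15, 2.40 and 1.16 CPM without caerulein and at 9.81, 4.80, 4.08 and 2.02 CPM after it. Post-caerulein 4 lay among the untreated values, and Cfb did not pass (adjusted p = 0.129 with the block, edgeR quasi-likelihood).

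C3, the central component of all 3 complement pathways, was by far the most abundant complement gene, at 112 RPKM. It was at 632, 586 and 304 CPM without caerulein and at 849, 669.7, 647 and 339.8 CPM after it. The value of each library followed its block, with untreated 3 and post-caerulein 4 lowest, and the group difference did not pass in either fit (adjusted p of 0.890 and 0.418, edgeR quasi-likelihood). Cd55, which shields cells from complement by dissolving the C3 convertase, had the reverse order: it was at 78.2, 79.7 and 272 CPM without caerulein and at 100.4, 93.7, 92.0 and 172 CPM after it, highest in untreated 3 and post-caerulein 4. C1ra and C1s1, proteases of the C1 complex, did not exceed 0.245 CPM and were too low to test.

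**Figure D3:**
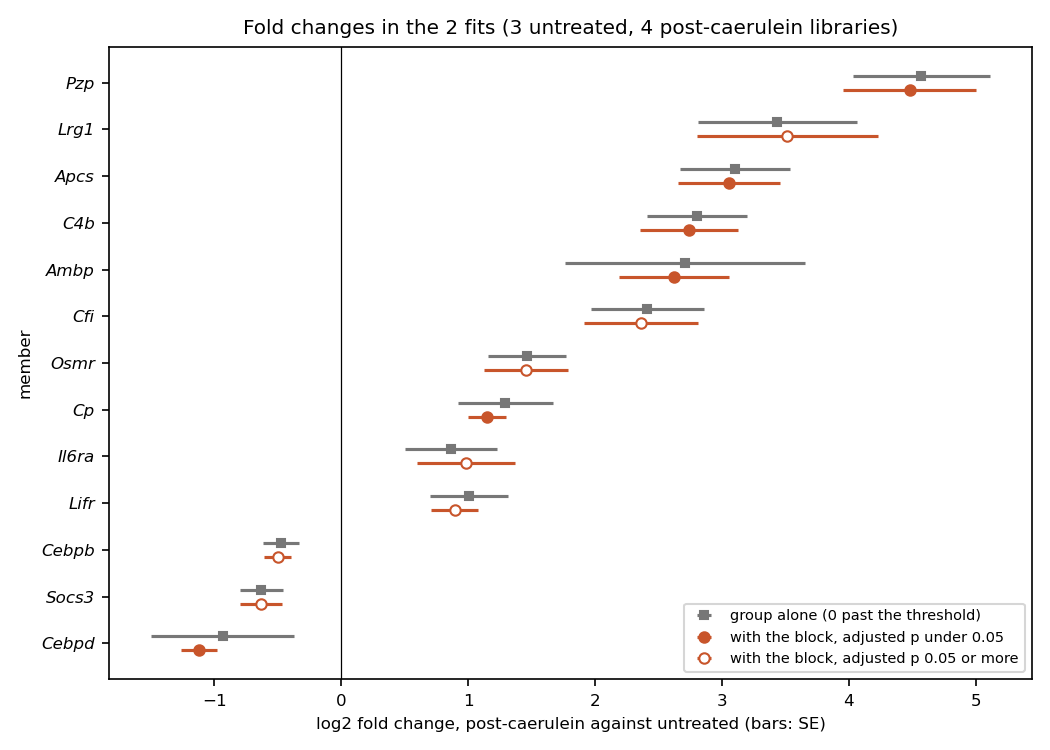
Log2 fold changes of post-caerulein against untreated libraries, with SE, for the 13 members described with a fold change; squares are the fit with the group alone and circles the fit with the block, filled where the adjusted p was under 0.05. The 2 fits gave similar changes, and the SE of Cebpd, Ambp and Cp were smaller with the block (0.14, 0.43 and 0.15 against 0.56, 0.95 and 0.37).

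The difference between the groups was next set out within each block, where the smaller block has 1 library per group and allows no test. Of the 35 tested members, 16 were higher after caerulein in both blocks and 4 were lower in both, against 24.3% and 25.7% of all genes tested. The 16 included the 5 that rose with the block as well as Osmr, Lifr, Lrg1, Cfi and Cfb, and the 4 were Socs3, Cish, Cebpb and Cebpd. For Osmr the log2 difference was 1.97 in the larger block and 0.22 in the smaller one, for Cp 1.31 and 0.76, and for Ambp 2.55 and 2.80. Lcn2 (1.27 and -0.24), Saa3 (2.32 and -0.51) and Il13ra1 (0.75 and -0.13) were higher in the larger block and lower in the smaller one. For 10 members both untreated 3 and post-caerulein 4 lay below all other 5 libraries, and for 3 (Timp1, Hpx and Cd55) both lay above them, against 18.2% and 17.9% of all genes tested. In the larger block alone edgeR's quasi-likelihood test called 19 members higher and 1 lower, where 7.35% of all genes were called higher and 6.46% lower.

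**Figure D4:**
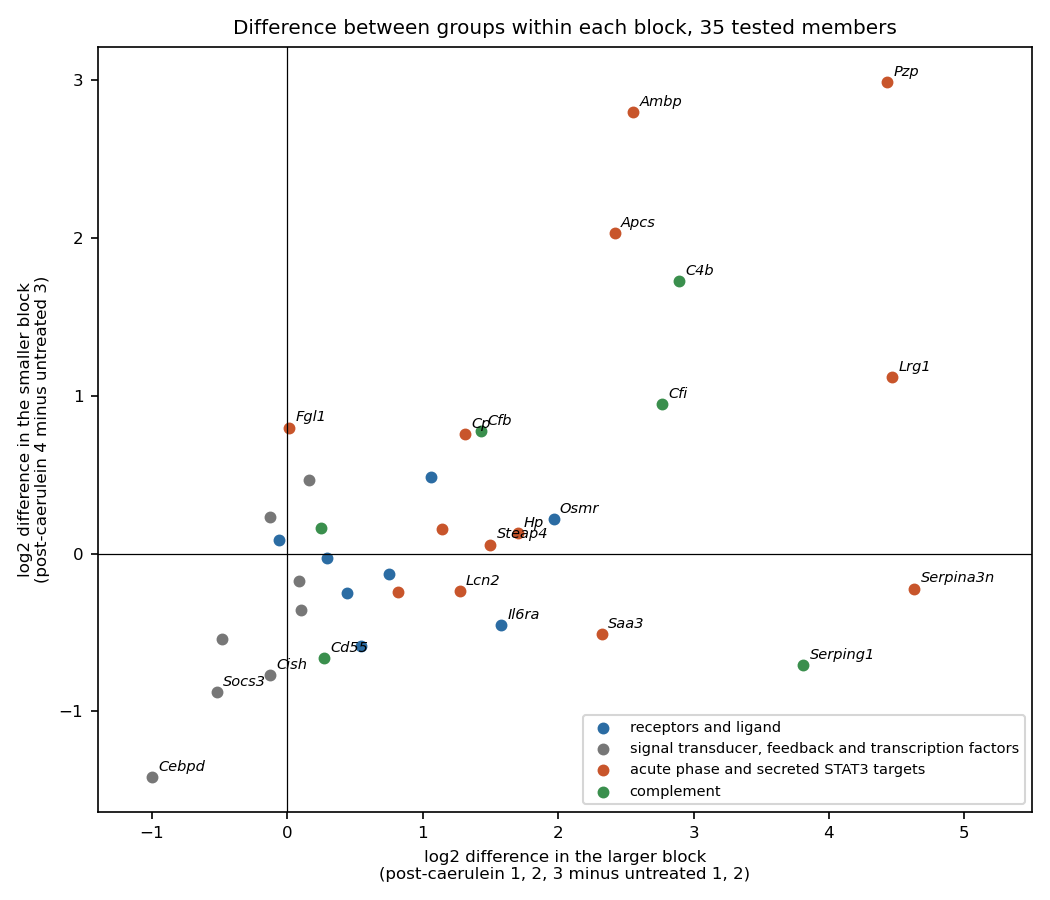
Log2 difference (post-caerulein minus untreated, of mean CPM + 0.05) of the 35 tested members in the larger block (horizontal axis) and in the smaller block (vertical axis), coloured by role. Pzp, Apcs, Ambp and C4b lie at 1.73 or more on both axes, Cebpd lies lowest on both, and Serpina3n and Serping1 are high in the larger block but below 0 in the smaller one.

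The authors' deposited table lists 28 of the 40 members and puts 13 of them below a false discovery rate of 0.05 (11 with a positive and 2 with a negative fold change), where 7.88% of its 12983 genes have such a rate, 4.49% higher and 3.39% lower. In the authors' deposited table the smallest rates of these members were 1.01e-14 for Pzp (log2 fold change 4.49) and 1.20e-12 for Ambp (2.64). The authors' deposited table also gives Il6ra (log2 fold change 1.00, rate 0.0324), Osmr (1.47, 1.98e-05), Lifr (0.91, 0.000826), Lrg1 (3.58, 1.60e-08) and Cebpb (-0.49, 0.0134). It further gives Cfi (2.37, 8.57e-06), Cfb (1.27, 0.0172) and Serpina3n (4.27, 0.0115). None of these passed the quasi-likelihood test in either fit. Apcs is not among the 28 members that the authors' deposited table lists.

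Further genes of the same pathways came from 3 lists set apart from the members. Of 40 other JAK-STAT genes 35 were tested, and 0 passed in either fit by edgeR's quasi-likelihood test, with 3 at an unadjusted p under 0.05 with the group alone and a median log2 change of 0.03 with the block. Of 40 other acute phase and secreted genes 22 were tested and 0 passed, but 10 had an unadjusted p under 0.05, 20 had a positive change with the group alone and the median was 1.31 with the block. The groups did not overlap for 7 of the 22, all higher after caerulein, where 4.67% of all genes had higher, non-overlapping groups. This list holds Alb, Ttr and Apoa1, which are also among the hepatocyte markers above, so it partly repeats their values. Of 37 other complement genes 16 were tested and 0 passed, with 2 at an unadjusted p under 0.05 and a median of -0.05 with the block, and 13 of the 37 had 3 reads or fewer in every library. With the group alone, 9.5% of all genes had an unadjusted p under 0.05 by the same test. A positive change was found for 7740 of all 16438 genes in that fit.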

How the data were processed

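The main file is the table of read counts that the authors deposited; the submitters' processing notes name featureCounts 0.6.1 and the build GRCm38 (mm10). For the aligner and for strand the sources used here give nothing, so overlapping genes and near-identical copies may share reads. The authors' deposited edgeR (version 3.2.2) table holds, per the file headers, log2 fold changes, mean log2 CPM, a likelihood ratio score, a p-value and its adjusted rate. Its design is not stated.

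The members and gene lists were chosen with earlier results of these data known. Symbols were paired through gene IDs. Genes were kept by filterByExpr (minimum count 10, minimum total 15), scaled by TMM and tested over all 16438 genes with edgeR 4.0.16 (quasi-likelihood, robust, two-sided, Benjamini-Hochberg, adjusted p under 0.05) in R 4.3.3. SE is the log2 change divided by the root of the F statistic. Differences within blocks add 0.05 CPM. The procedure was tested on simulated counts. Library values are given for called members, tested members with non-overlapping groups and Il6ra, Il6st, Osmr, Lif, Stat3 and Socs3. Others given in full (among them Cfb, C3, Cd55, Hp, Steap4, Lcn2, Bcl3, Bcl6, Socs2, Serpina3n, Serping1, Orm1 and Saa3), C4a and Csf1r were chosen after their values were seen. Alternatives were other scalings and filters, DESeq2 1.42.0, a likelihood ratio test, close pairs summed, a replicate block, the larger block alone and each library left out. Figures used matplotlib 3.10.9.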

Additional observations from a re-analysis of the deposited data

Results flagged for a closer look

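In 5 of the 35 tested members, 1 of the 4 post-caerulein libraries stood apart from the other 3 by more of the group's range than Dixon's 95% critical value allows. Chance flags about 1 in 20 groups of independent, normally distributed values. The post-caerulein libraries include a close pair, and no share over all genes is given, so this rate is no baseline for the 5. Post-caerulein 4 was the library apart for Osmr (44.9 CPM, low), Bcl6 (28.7 CPM, low) and Cd55 (172 CPM, high). Post-caerulein 1 was the library apart for Il6st (325 CPM, high) and Socs3 (14.7 CPM, high).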

How the results depend on the processing

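With the group alone, no gene and no member was called under other scalings, the stricter filter, close pairs summed or the replicate block. Without a filter 23 genes and 2 members were called, by DESeq2 509 and 8, and by a likelihood ratio test 343 and 7. Leaving out each library gave 0 to 1149 genes and 0 to 10 members. With the deposited table's block, 251 genes and 6 members were called, against 602 genes without a filter, 138 with the stricter filter, 1389 genes and 16 members by DESeq2, 1227 and 15 by a likelihood ratio test, 0 and 0 with close pairs summed, and 2247 and 20 in the larger block alone. Leaving out each library gave 0 to 2267 genes and 0 to 20 members. With the replicate number as a replicate block beside that term 1184 genes and 14 members were called, but the numbers do not pair the libraries: deviations from the group means correlated at 0.37, 0.14 and -0.21 for numbers 1, 2 and 3, and untreated 2 correlated best with post-caerulein 1. The causes of these shifts were not tested. For the 13 members given with a fold change, log2 changes were recomputed 194 times with the group alone, where 27 gained a call, and 206 times with the block, where 34 lost a call and 36 gained one; 0 called values changed sign. Members under about 1 CPM rest on few reads, and their levels are limited by depth.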

Other observations

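Some genes outside the 40 members, chosen after their values were seen, had large differences that did not pass the quasi-likelihood test. The 3 fibrinogen chain genes, which encode the clotting protein of the acute phase, differed by library within the post-caerulein group. Fga was at 0.0495, 0.0421 and 0.467 CPM in untreated 1, 2 and 3 and at 1.26, 13.7, 19.2 and 2.86 CPM in post-caerulein 1 to 4 (adjusted p = 0.106 with the block, edgeR quasi-likelihood). Fgb was at 0.448, 11.8, 18.4 and 1.62 CPM and Fgg at 0.140, 4.44, 5.62 and 0.735 CPM in post-caerulein 1 to 4, and both stayed at or under 0.311 CPM in the untreated libraries. The close pair of post-caerulein 2 and 3 thus held the highest values of all 3 genes. Ahsg, which encodes the plasma protein fetuin-A, was without reads in all 3 untreated libraries (0) and had 223 reads over the 4 post-caerulein ones, at least 59.2-fold higher when 3 reads over the untreated group are taken as the limit (adjusted p = 0.0710 with the block, edgeR quasi-likelihood). Clcf1, a ligand of the IL-6 family, was at 85.2, 126 and 33.6 CPM in untreated and at 47.4, 33.4, 29.5 and 26.5 CPM in post-caerulein libraries (adjusted p = 0.0847 with the block, edgeR quasi-likelihood). Itih2, whose product is a heavy chain that binds bikunin, was at 3.91, 4.59 and 5.47 CPM and at 15.2, 13.5, 14.1 and 7.77 CPM, without overlap (adjusted p = 0.0548 with the block, edgeR quasi-likelihood).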
